A study of Mus musculus with 4 samples.

Results

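The Notch receptors *Notch1*, *Notch2* and *Notch3*, the ligands *Dll1*, *Dll3* and *Jag1*, and the transcriptional effectors and relatives *Hes1*, *Hes5*, *Hes6* and *Hey1* were examined in sorted interneuron-lineage cells of the embryonic mouse brain. These 10 genes were taken by name from a table of 56883 genes, and each matched 1 row. All 10 were measured by RNA sequencing at E14.5 in tdTomato-positive cells sorted from the basal telencephalon, the ventral forebrain in which cortical interneurons are born. Control cells carried *Sst-Cre/tdTomato*, and *Dnmt1* KO cells carried *Sst-Cre/tdTomato/Dnmt1 loxP2*. Both genotypes thus shared the Cre driver and the tdTomato reporter and differed by design in the floxed *Dnmt1* alleles. The paper states a C57BL/6J background for the strains, and the floxed alleles came in through males of a separate cross. Other differences between the crosses cannot be told apart from the floxed alleles. Each genotype had 2 libraries, and each library came from cells pooled over several embryos, whose sex was not distinguished. Cre is driven from the somatostatin gene, so deletion of *Dnmt1*, the maintenance DNA methyltransferase, is limited to cells that have expressed *Sst*, and the sort selects the reporter rather than the deletion.

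Notch is a receptor on the cell surface that is activated by Delta or Jagged proteins on a neighbouring cell. Binding leads to cleavage of the receptor, and the released intracellular domain enters the nucleus, joins the DNA-binding protein RBPJ and switches on target genes, among them *Hes1*, *Hes5* and *Hey1*, which encode repressors of proneural genes. In the embryonic telencephalon the pathway is known for keeping radial glia, the neural progenitors, from differentiating, while their newly committed progeny present Delta ligands. DLL3 differs from the other ligands in that it does not activate Notch on neighbouring cells, and HES6 differs from HES1 and HES5 in that it opposes HES1 and promotes neuronal differentiation.

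The libraries held 6970247 to 8376711 reads assigned to genes, as recovered from the deposited normalized counts. Library replicates of a genotype differed by more than counting noise (chi-square per degree of freedom of 2.71 in the control and 2.31 in the *Dnmt1* KO), and less than libraries of different genotypes (9.35 to 9.64). *Dnmt1* itself was counted at 2238 and 2341 in the control and at 2164 and 2210 in *Dnmt1* KO libraries, a log2 fold change of -0.07 (adjusted p = 0.461, limma). This count covers the whole gene and does not separate the floxed exons. *Sst* was at 5580 and 5963 in the control and at 8303 and 7825 in *Dnmt1* KO libraries, and all 15 markers of SST interneurons were detected in every library.

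Of the 10 Notch genes, 5 were lower in the *Dnmt1* KO and none was higher. A gene was called when its adjusted p fell below 0.05 in limma on log2(normalized count + 1), with p adjusted over the 14323 genes whose normalized counts averaged 10 or more. All 10 passed that minimum. At an unadjusted p below 0.05 in limma, 7 were lower and 0 higher, beside 4323 of all 14323 genes tested in either direction. Neither edgeR nor DESeq2 on recovered reads called any of the 10 higher. The called genes were the receptors *Notch1*, *Notch2* and *Notch3*, the ligand *Jag1* and the effector *Hes5*. Over all genes tested 17.3% were called, 8.99% in the lower direction and 8.3% in the higher direction. The estimated log2 fold change was below 0 for each of the 10 genes, with a median of -0.62 beside -0.0033 over all genes tested. For 9 of the 10, both *Dnmt1* KO libraries lay below both control libraries, which also held for 29% of all genes tested. With 2 libraries against 2, an exact two-sided permutation test of a single gene cannot go below p = 0.333, so every call below rests on the variance that limma shares across genes. Nothing in the labels says whether the libraries of a genotype came from separate litters, so the p-values measure the spread between these libraries only.

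**Figure D1:**
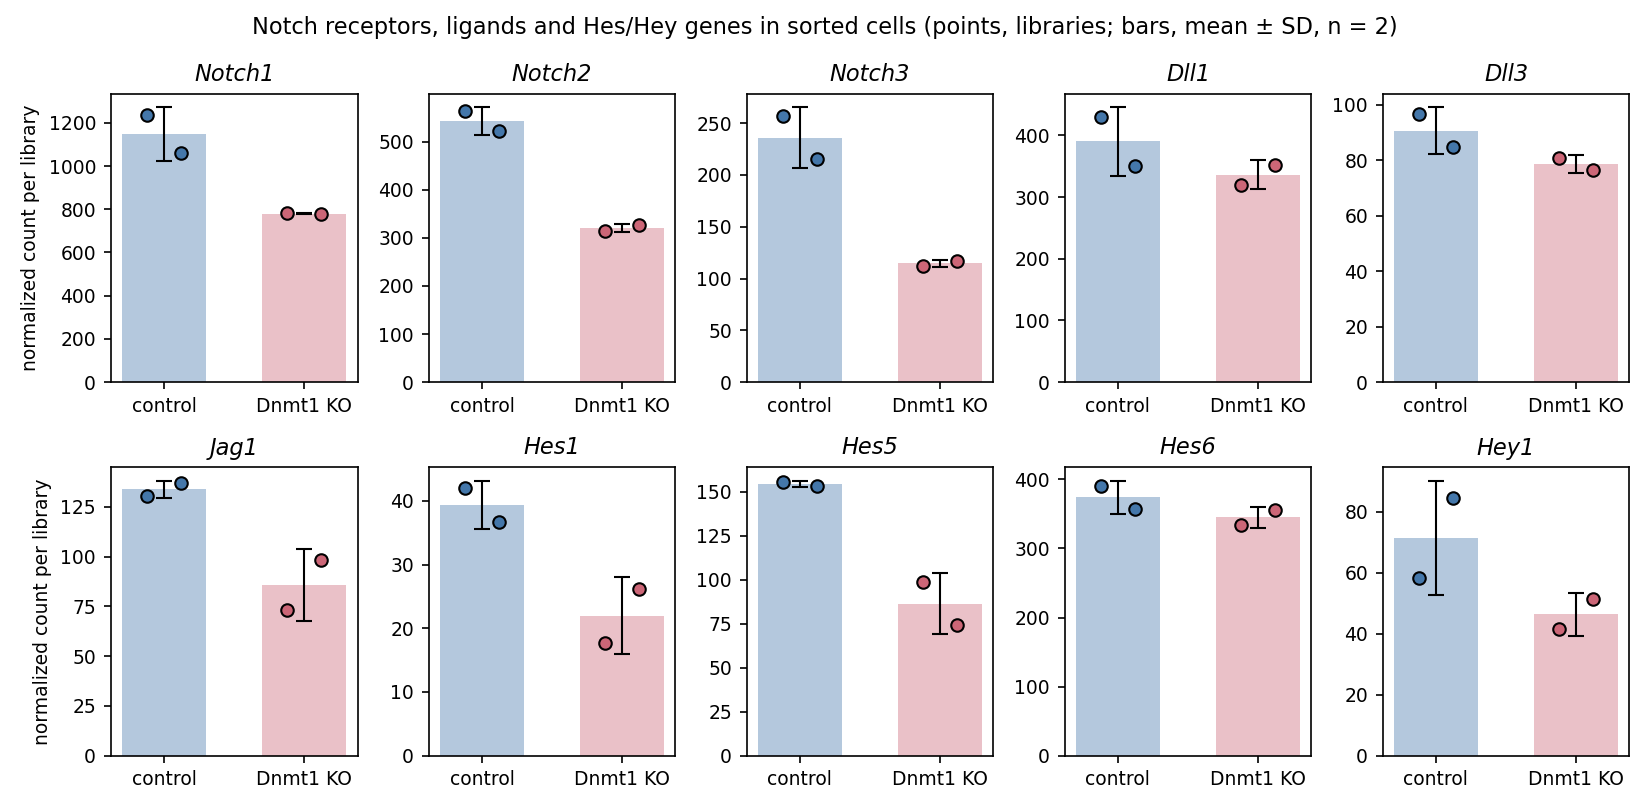
Normalized read count (vertical axis, from 0, own scale per panel) of the 10 Notch genes in the control and *Dnmt1* KO libraries; points are libraries, bars the mean and error bars the SD of 2. The libraries of the genotypes overlap only for *Dll1*.

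All 3 receptors were lower in the *Dnmt1* KO. *Notch1*, the receptor with the widest role in neural progenitors, lies on chromosome 2 (GRCm39 chr2:26347915-26406675, minus strand). It had 1236 and 1061 normalized counts in control libraries and 781 and 778 in *Dnmt1* KO libraries. The *Dnmt1* KO libraries were nearly equal and both below the lower control library. *Notch1* fell by 0.55 on the log2 scale (SE 0.079, 95% interval -0.72 to -0.39, adjusted p = 0.000179, limma), which left 67.9% of the control mean.

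*Notch2*, a receptor that radial glia and vascular smooth muscle also use (chr3:97920800-98057677, plus strand), was counted at 563 and 523 in the control and at 315 and 326 in *Dnmt1* KO libraries. The gap between the genotypes was wider than the spread within either. The log2 fold change was -0.76 (SE 0.094, 95% interval -0.96 to -0.56, adjusted p = 5.18e-05, limma), with 59.0% of the control mean remaining.

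*Notch3*, the receptor best known from pericytes and vascular smooth muscle and also made by neural progenitors (chr17:32339794-32385893, minus strand), showed the largest estimated change of the 10 genes with all 4 libraries. Without *Dnmt1* KO replicate 2 the estimate of *Hes1* was larger (-1.10 against -1.06), and without *Dnmt1* KO replicate 1 that of *Hes5* was (-1.05). Its normalized counts were 257 and 215 in the control and 112 and 117 in *Dnmt1* KO libraries, so that the highest *Dnmt1* KO library was well below the lowest control library. *Notch3* fell by 1.03 on the log2 scale (SE 0.145, 95% interval -1.34 to -0.72, adjusted p = 0.00016, limma), to 48.6% of the control mean.

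The same counts can be given as shares of the summed receptor level, which restates the fold changes. As shares of the normalized count per kb of exon summed over the 3 receptors, *Notch1* made up 52.5% and 51.5% in the control and 57.6% and 56.6% in *Dnmt1* KO libraries. *Notch3* made up 17.2% and 16.5% in the control and 13.1% and 13.4% in *Dnmt1* KO libraries. *Notch2* held 30.2% and 32.0% against 29.3% and 29.9%. The genotypes did not overlap for any of these shares, but the differences were small for *Notch2* and the shares were not tested. Each of the 3 receptors was still called with any 1 library left out, with adjusted p in limma of at most 0.0040 for *Notch1*, 0.0017 for *Notch2* and 0.0073 for *Notch3*.

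The fourth mammalian receptor gene, *Notch4*, is known mainly from endothelium. It was counted at 41.2 and 41.9 in the control and at 20.7 and 22.9 in *Dnmt1* KO libraries, a log2 fold change of -0.90 with a 95% interval of -1.56 to -0.23 that did not pass after adjustment (adjusted p = 0.0606, limma). *Notch4* was named after its values were seen.

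Among the ligands only *Jag1* was called, and that call was fragile. *Jag1*, a Jagged ligand of progenitors and vessels (chr2:136923373-136958693, minus strand), had 131 and 137 normalized counts in the control and 73.0 and 98.3 in *Dnmt1* KO libraries. The control libraries agreed closely, while the *Dnmt1* KO libraries stood further apart. The log2 fold change was -0.65 (SE 0.186, 95% interval -1.05 to -0.26, adjusted p = 0.0243, limma). Without control replicate 1 the adjusted p was 0.0925, without control replicate 2 it was 0.138 and without *Dnmt1* KO replicate 1 it was 0.167, each with a value below 0 (log2 fold change of -0.44 to -0.86 over the 4 omissions). DESeq2 on recovered reads gave an adjusted p of 0.154.

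*Dll1*, the main Delta ligand of committed neural progenitors (chr17:15587276-15597134, minus strand), was the only gene of the 10 whose genotypes overlapped. Its normalized counts were 430 and 351 in the control and 320 and 353 in *Dnmt1* KO libraries. No change was called (log2 fold change -0.21, 95% interval -0.45 to 0.03, adjusted p = 0.234, limma), and the interval leaves room for a fall of up to 0.45 on the log2 scale. The value was -0.06 without control replicate 1, -0.35 without control replicate 2 and -0.14 without *Dnmt1* KO replicate 1. *Dll1* shares 1369 bases of exon with *Fam120b* on the opposite strand, which had 396 to 446 normalized counts. The paper names a stranded library kit, but whether reads were counted by strand is not given in the sources used here, so the *Dll1* counts are uncertain.

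*Dll3* (chr7:27992978-28001673, minus strand) had 96.6 and 84.7 normalized counts in the control and 80.9 and 76.5 in *Dnmt1* KO libraries. The genotypes did not overlap but lay close together, and no change was called (log2 fold change -0.20, 95% interval -0.61 to 0.21, adjusted p = 0.535, limma). With 70 to 108 reads per library, the interval includes a fall of up to 0.61 on the log2 scale. The value was -0.11 without control replicate 1 and -0.29 without control replicate 2.

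The remaining canonical ligands were *Dll4* and *Jag2*. *Dll4*, the Delta ligand of endothelial tip cells, was counted at 26.8 and 31.6 in the control and at 3.95 and 7.65 in *Dnmt1* KO libraries, and fell by 2.20 on the log2 scale (95% interval -3.24 to -1.17, adjusted p = 0.00542, limma). Without control replicate 2 its adjusted p was 0.0615. *Jag2*, named after its values were seen, had 211 and 229 normalized counts in the control and 281 and 235 in *Dnmt1* KO libraries and was not called (log2 fold change 0.22, adjusted p = 0.255, limma).

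**Figure D2:**
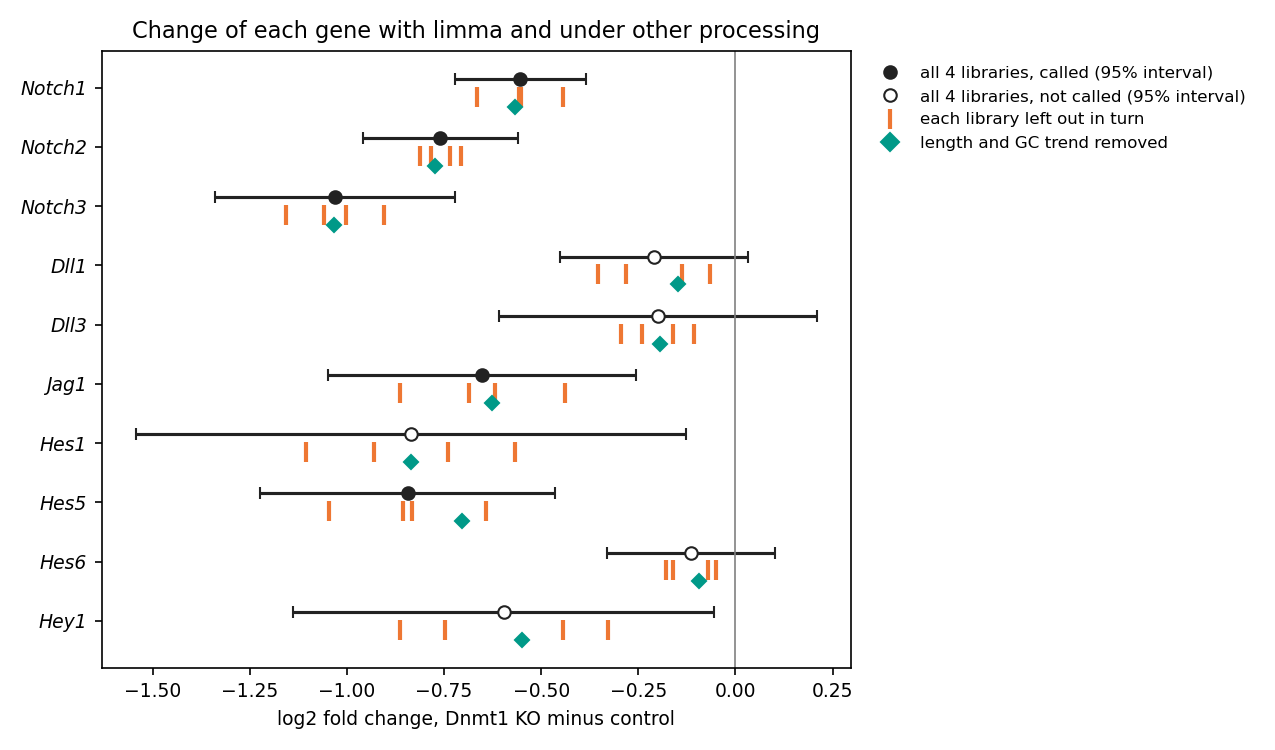
Log2 fold change (horizontal axis, *Dnmt1* KO minus control) of the 10 Notch genes with its 95% interval in limma, filled where called; ticks give the value with each library left out in turn and diamonds the value once the trend with transcript length and GC was taken out. All values lie below 0, and the 5 filled points are *Notch1*, *Notch2*, *Notch3*, *Jag1* and *Hes5*.

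The effectors are the genes in which activity of the pathway is usually read. Their promoters were searched for the RBPJ motif TGGGAA on both strands, from 250 bases before to 50 bases after the start of the canonical transcript (GENCODE annotation of GRCm39). Of the 10 Notch genes, *Hes1*, *Hes5* and *Hey1* held it, beside 25.9% of 21770 protein-coding promoters. The longer form GTGGGAA, which contains the shorter one, was in the same 3 promoters and in 6.35% of all. A match of letters is a description and not a site shown to be bound. The stretches of 30 bases around the matches are shown because these 3 genes are the classical Notch targets among the 10. They are written 5′ to 3′ on the strand of the gene, with TGGGAA, or TTCCCA where the motif is on the other strand, in capitals.
*Hes1*, chr16:29884073-29884102, plus strand, bases -54 to -25 from the start: tactgTGGGAAagaaagttTGGGAAgtttc
*Hes5*, chr4:155045142-155045171, plus strand, bases -231 to -202 from the start: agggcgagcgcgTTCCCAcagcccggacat
*Hes5*, chr4:155045286-155045315, plus strand, bases -87 to -58 from the start: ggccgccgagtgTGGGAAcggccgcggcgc
*Hey1*, chr3:8732474-8732503, minus strand, bases -187 to -158 from the start: ggcgccggcactTTCCCAcggcccgcggcg

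*Hes1* and *Hes5* each held the motif 2 times and *Hey1* held it once. All 3 had lower counts in both *Dnmt1* KO libraries than in both control libraries, but only *Hes5* passed the test.

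*Hes5*, a repressor kept on by Notch in radial glia (chr4:155045373-155046828, plus strand), had 156 and 153 normalized counts in the control and 98.6 and 74.3 in *Dnmt1* KO libraries. The control libraries were nearly equal and far above both *Dnmt1* KO libraries. *Hes5* fell by 0.84 on the log2 scale (SE 0.178, 95% interval -1.22 to -0.46, adjusted p = 0.00404, limma), to 56.0% of the control mean. It was called with any 1 library left out (adjusted p of at most 0.0398, limma) and with DESeq2 on recovered reads (adjusted p = 0.0262). Once the trend with transcript length and GC was taken out, its log2 fold change was -0.70, and it was still called.

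*Hes1*, the repressor whose level oscillates in neural progenitors (chr16:29882134-29886643, plus strand), was low in these cells. It had 42.1 and 36.8 normalized counts in the control and 17.8 and 26.2 in *Dnmt1* KO libraries, which rest on 18 to 47 reads per library. Its log2 fold change of -0.84 was close to that of *Hes5*, but with an SE of 0.332 it did not pass (95% interval -1.54 to -0.13, adjusted p = 0.1, limma). With single libraries left out it ranged from -1.10 to -0.57 and was not called.

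*Hey1*, a Hairy-related repressor of progenitors and vessels (chr3:8726956-8732385, minus strand), was at 58.2 and 84.7 normalized counts in the control and at 41.4 and 51.4 in *Dnmt1* KO libraries. The control libraries stood further apart than the *Dnmt1* KO libraries, and the lower of them was close to the higher *Dnmt1* KO library. No change was called (log2 fold change -0.60, SE 0.254, 95% interval -1.14 to -0.05, adjusted p = 0.127, limma). The estimate depends on single libraries, at -0.86 without control replicate 1 and -0.33 without control replicate 2.

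*Hes6*, which rises as neurons differentiate (chr1:91339204-91342103, minus strand), was counted at 391 and 357 in the control and at 334 and 356 in *Dnmt1* KO libraries. The higher *Dnmt1* KO library and the lower control library differed by about 1 normalized count. The log2 fold change was -0.11 (95% interval -0.33 to 0.10, adjusted p = 0.494, limma), or -0.18 to -0.05 with single libraries left out. With all 4 libraries, of the 10 genes *Hes6* had the smallest estimate and the narrowest interval among those not called.

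The rest of the Hes and Hey family added no call. *Heyl* had 29.5 and 16.3 normalized counts in the control and 19.7 and 8.74 in *Dnmt1* KO libraries, *Helt* had 10.9 to 17.5 over the 4 libraries, *Hes7* and *Hey2* were below the minimum for testing, and *Hes2* and *Hes3* had no read in any library. These 6 genes were named after their values were seen.

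Levels were compared between genes as normalized count per kb of annotated exon. In the control, *Hes6* had the highest level (130 ± 8.30, SD, n = 2), followed by *Hes5* (113 ± 1.33), *Notch1* (80.7 ± 8.70), *Dll1* (78.7 ± 11.2), *Notch2* (48.2 ± 2.52), *Dll3* (29.8 ± 2.76), *Notch3* (26.2 ± 3.25), *Jag1* (22.4 ± 0.730), *Hey1* (14.9 ± 3.92) and *Hes1* (11.7 ± 1.11). The control libraries of *Notch1* and *Dll1*, of *Dll3* and *Notch3*, and of *Hey1* and *Hes1* overlapped, so those neighbours were not separated. In the *Dnmt1* KO the order of the level per kb was *Hes6* (120 ± 5.36, SD, n = 2), *Dll1* (67.8 ± 4.75), *Hes5* (63.1 ± 12.6), *Notch1* (54.8 ± 0.163), *Notch2* (28.4 ± 0.687), *Dll3* (25.8 ± 1.02), *Jag1* (14.4 ± 3.01), *Notch3* (12.7 ± 0.350), *Hey1* (9.67 ± 1.46) and *Hes1* (6.51 ± 1.77). *Dll1*, which was not called, stood above *Hes5* and *Notch1*, which were, in the order of the *Dnmt1* KO means, although the *Dnmt1* KO libraries of *Hes5* overlapped those of both. The *Dnmt1* KO libraries of *Jag1* and *Notch3*, whose order swapped against the control, also overlapped. Both orders depend on the length used. Over the annotated transcript with the longest coding sequence, a choice made after seeing the data, the control level of *Notch1* was 121 per kb and that of *Hes5* was also 121, and their libraries overlapped. In the *Dnmt1* KO, *Notch1* (82.2) then stood above *Hes5* (67.6) without overlap and overlapped *Dll1* (82.6).

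**Figure D3:**
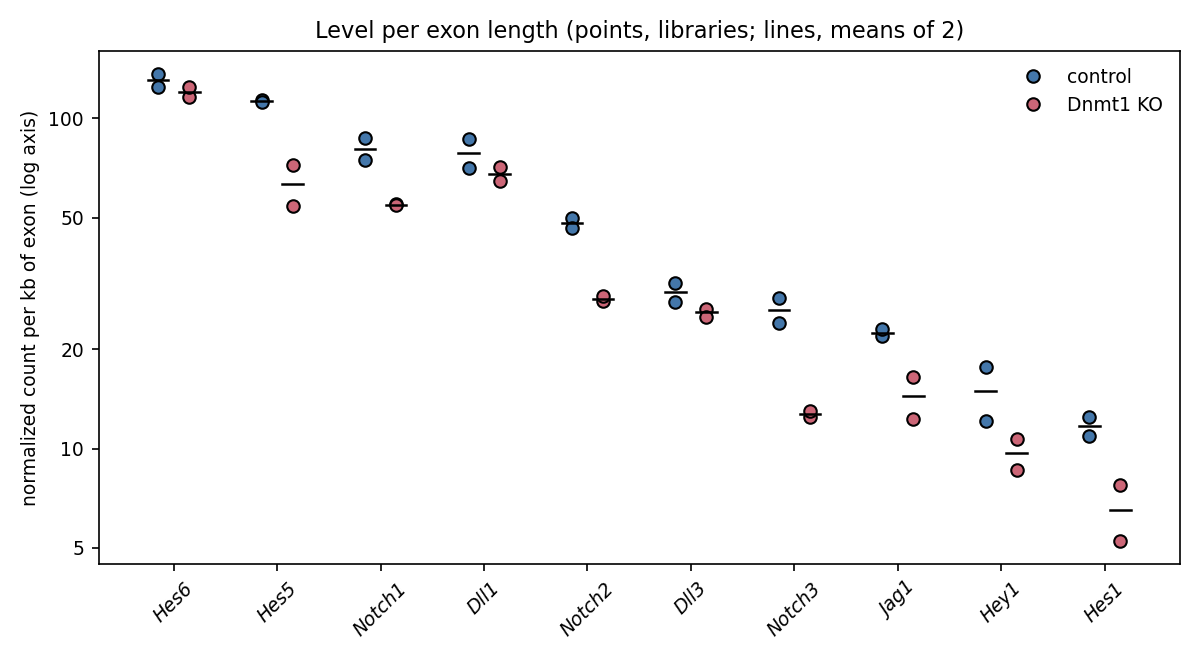
Level of the 10 Notch genes as normalized count per kb of exon (vertical axis, log scale), in the order of the control means; points are libraries and lines means of 2. The levels run from 130 for *Hes6* to 11.7 for *Hes1* in the control, and the gap between genotypes is wide for *Hes5* and *Notch3* and narrow for *Hes6*, *Dll1* and *Dll3*.

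Summed by role, the normalized counts of the 3 receptors were 2056 and 1799 in the control and 1208 and 1220 in *Dnmt1* KO libraries, 63.0% of the control mean. Those of the 3 ligands were 657 and 573 against 473 and 528, or 81.4%. Those of the 4 Hes and Hey genes were 647 and 632 against 492 and 508, or 78.2%, and *Hes6*, the most abundant of them and not called, carried more than the other 3 together. The role sums of the genotypes did not overlap.

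Beyond the 10 genes, 69 other genes of the pathway were listed by role, of which 65 were tested. Among these, 13 were lower and 5 higher in the *Dnmt1* KO, with a median log2 fold change of -0.07. No gene of the machinery that modifies the receptors and ligands was called. Over all genes tested 17.3% were called, and each list that follows is too short to tell none from that share. None of 4 genes for ligand ubiquitination (*Mib1*, *Mib2* and relatives, needed for ligands to signal), none of 5 for receptor glycosylation and none of 10 for receptor cleavage (ADAM proteases and the subunits of γ-secretase) passed the test in limma, and 9 of the cleavage genes had a log2 fold change between -0.44 and 0.16. The tenth, *Aph1c*, named after its values were seen, had 19.7 and 16.3 normalized counts in the control and 2.96 and 14.2 in *Dnmt1* KO libraries (log2 fold change -1.29, adjusted p = 0.171, limma). At an unadjusted p below 0.05 in limma these lists held 0, 2 and 1 genes, beside 4323 of all 14323 genes tested. With edgeR and DESeq2 on recovered reads, 0 were called in each. In the glycosylation list *Lfng*, the fringe enzyme that shifts the preference of Notch from Jagged to Delta ligands and was named after its values were seen, had 70.7 and 65.3 normalized counts in the control and 44.4 and 39.3 in *Dnmt1* KO libraries (log2 fold change -0.69, adjusted p = 0.0603, limma).

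In the nuclear complex, *Rbpj* had 717 and 697 normalized counts in the control and 660 and 567 in *Dnmt1* KO libraries and was not called (log2 fold change -0.21, 95% interval -0.39 to -0.02, adjusted p = 0.119, limma; named after its values were seen). Of 9 genes for RBPJ and its coactivators, 1 was lower and 2 were higher. The coactivator *Maml2* fell by 0.90 on the log2 scale (149 and 94.9 against 64.1 and 62.3, adjusted p = 0.0101, limma). This value rests on control replicate 1, without which it was -0.58 with an adjusted p of 0.179. The histone acetyltransferases *Ep300* and *Crebbp*, which serve many other pathways, rose by 0.26 and 0.25 (adjusted p = 0.00937 and 0.0025, limma). *Ep300* was no longer called without control replicate 1 (adjusted p = 0.0775) or without *Dnmt1* KO replicate 2 (0.0752).

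Of 13 corepressor genes, 4 were lower and 1 was higher. *Ctbp2*, *Tle4* and *Tle1*, which encode partners that Hes proteins and other repressors recruit, fell by 0.44, 0.43 and 0.38 on the log2 scale (adjusted p = 0.00527, 0.00335 and 0.00739, limma). *Tle1* was not called without control replicate 2 (adjusted p = 0.0737). The other two called corepressor genes, named after their values were seen, were *Hdac1* (log2 fold change -0.37) and *Spen* (0.27).

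Among 10 genes for receptor turnover and feedback inhibition, *Nrarp*, a direct Notch target that limits the pathway, had 131 and 128 normalized counts in the control and 88.8 and 53.5 in *Dnmt1* KO libraries. It fell by 0.90 on the log2 scale (95% interval -1.37 to -0.42, adjusted p = 0.011, limma), but passed neither DESeq2 (adjusted p = 0.0582) nor limma without control replicate 1 (0.0764), control replicate 2 (0.0685) or *Dnmt1* KO replicate 2 (-0.54, 0.0868). *Dtx1*, an E3 ligase that binds Notch, rose by 0.28 (606 and 616 against 742 and 738, adjusted p = 0.0214, limma), and was not called with any 1 library left out (adjusted p of 0.0590 to 0.0797).

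Of 3 other transmembrane proteins that bind Notch, *Dlk1*, a non-canonical Delta-like protein and imprinted gene, fell by 0.83 on the log2 scale (695 and 626 against 387 and 357, adjusted p = 1.82e-05, limma). *Dner*, a neuronal Delta-like protein, rose by 0.23 (1261 and 1127 against 1360 and 1431, adjusted p = 0.0353, limma). The *Dner* call was lost with DESeq2 (adjusted p = 0.111), without control replicate 2 (0.247) and without *Dnmt1* KO replicate 2 (0.159).

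The proneural and neurogenic factors, several of which Hes proteins repress and which themselves switch on Delta ligands, were also lower. Of 6 genes, 5 were called lower and none higher. *Neurog2*, the proneural factor of the excitatory lineage, had 421 and 420 normalized counts in the control and 161 and 157 in *Dnmt1* KO libraries and fell by 1.40 on the log2 scale (adjusted p = 7.16e-07, limma). *Btg2*, a marker of progenitors about to divide into neurons, fell by 1.04 (180 and 172 against 79.9 and 90.7, adjusted p = 0.000377, limma). *Neurog1* fell by 2.17 at very low counts (22.4 and 23.5 against 7.89 and 2.19, adjusted p = 0.0176, limma), and was not called without control replicate 1 (0.0856), control replicate 2 (0.101) or *Dnmt1* KO replicate 2 (-1.43, 0.0677). The other two called genes, *Gadd45g* (-0.74) and *Insm1* (-0.34), were named after their values were seen.

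**Figure D4:**
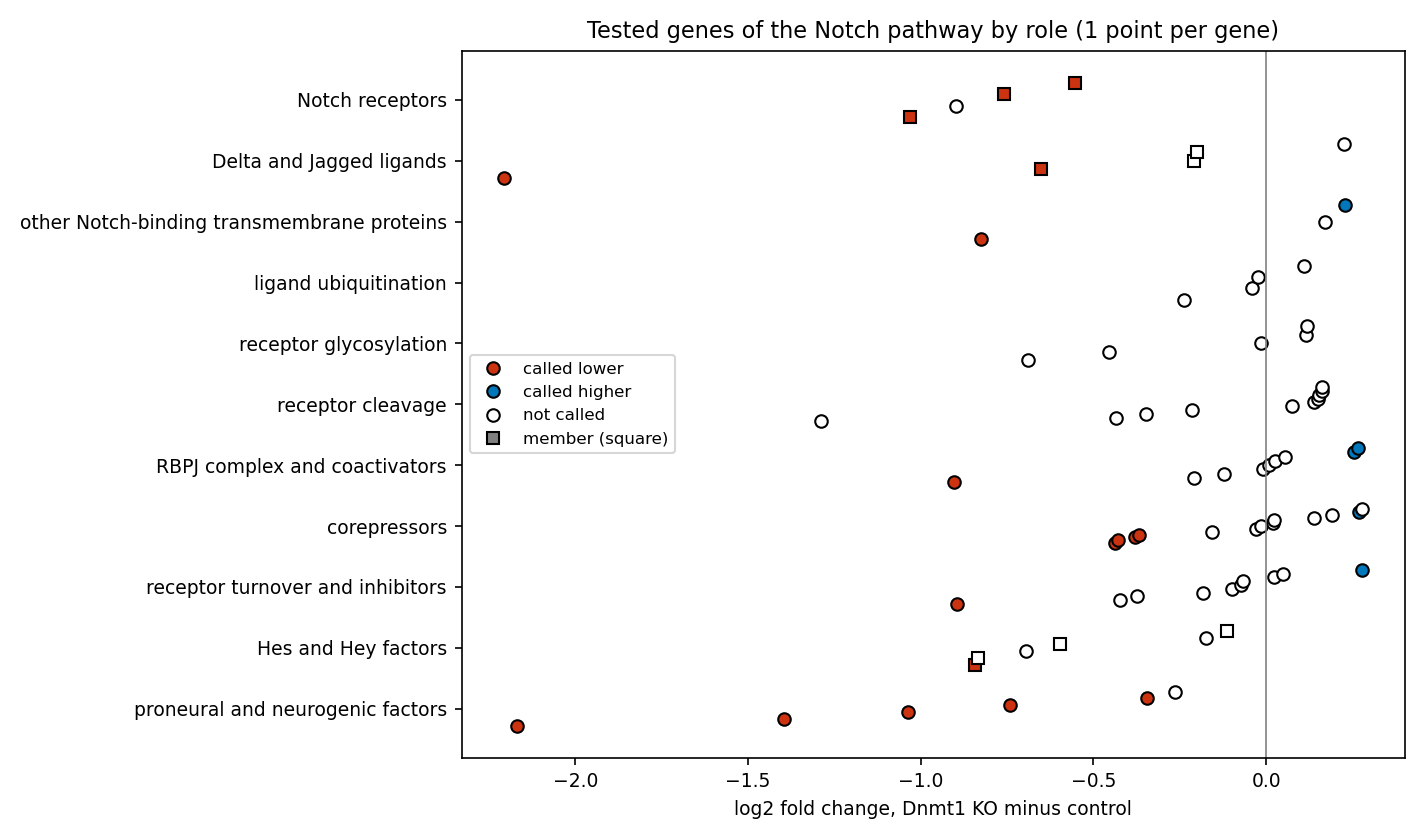
Log2 fold change (horizontal axis, *Dnmt1* KO minus control) of each tested gene of the Notch pathway by role (rows); squares are the 10 Notch genes, circles other genes, and colour marks the call in limma. Called genes on the lower side lie mainly among receptors, ligands, corepressors and neurogenic factors. The short ubiquitination, glycosylation and cleavage rows (4, 5 and 10 genes) hold none.

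Markers of other cell types moved with the Notch genes. These values are given beside them because radial glia, dividing progenitors, endothelium and mural cells all use Notch receptors, ligands or Hes and Hey genes. Of 18 radial glia markers, 15 were lower and 1 (*Sox2*) was higher in the *Dnmt1* KO, and their summed normalized count was 14411 and 14601 in the control and 8696 and 8924 in *Dnmt1* KO libraries, or 60.7% of the control mean. Of 12 proliferation markers, 11 were lower and none higher, with a sum of 7824 and 7549 against 5508 and 5489 (71.5%). Of 9 tested endothelial markers (10 listed), 8 were lower and none higher, with a sum of 602 and 600 against 243 and 263 (42.1%). Of 8 tested mural cell and fibroblast markers (11 listed), 6 were lower and none higher, with a sum of 482 and 526 against 255 and 238 (49.0%).

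The other lists moved as follows. Of 8 pallial excitatory lineage markers, 7 were lower and none higher (2668 and 2757 against 1514 and 1370, 53.2%). Of 8 tested erythroid markers (10 listed), 8 were lower (2610 and 2433 against 587 and 592, 23.4%). Of 4 tested microglia markers (8 listed), 2 were lower and none higher (110 and 120 against 38.5 and 50.3, 38.5%), and of 5 tested oligodendrocyte precursor markers (6 listed), 1 was lower and none higher (755 and 750 against 701 and 708, 93.6%). Most of that last sum was *Cspg5* (509 and 576 against 562 and 599), and the other 5 genes summed to 246 and 175 against 139 and 109, or 59.0%, a split made after seeing the data. All 15 SST interneuron markers were higher (24603 and 24978 against 38429 and 38667, 155%). No listed marker was at 0 in every library, while 1 mural cell and fibroblast marker, 2 microglia markers and 2 erythroid markers were at 0 in at least 1 library. Markers of cells other than SST interneurons were thus counted in both genotypes, with lower sums in the *Dnmt1* KO. In such bulk samples, fewer cells of a type and less RNA per cell cannot be told apart.

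Set against the summed radial glia markers of the same library, a description chosen after seeing the data, the Notch genes differed from each other. Per 1000 radial glia marker counts, *Notch2* had 39.1 and 35.8 counts in the control and 36.2 and 36.5 in *Dnmt1* KO libraries, and *Hes5* had 10.8 and 10.5 against 11.3 and 8.33. The genotypes overlapped for both on this scale, as they did for *Jag1*, *Hes1* and *Hey1*, with *Dnmt1* KO to control ratios of 1.05, 0.916 and 1.07. *Notch3* was lower in the *Dnmt1* KO on this scale too (17.8 and 14.8 against 12.9 and 13.1, a ratio of 0.799). *Notch1* was slightly higher (85.8 and 72.6 against 89.8 and 87.2, a ratio of 1.12). All of these ratios depend on which markers are summed. The sum includes *Sox2*, which rose (1085 and 1055 in the control, 1429 and 1390 in *Dnmt1* KO libraries). Single markers of the list ranged from 23.5% to 132% of their control means.

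These patterns depended on the list used as the base. Per 1000 summed counts of the proliferation markers, *Notch2* (71.9 and 69.2 in the control, 57.1 and 59.3 in *Dnmt1* KO libraries, a ratio of 0.825), *Hes5* (19.9 and 20.3 against 17.9 and 13.5, 0.782) and *Hes1* (5.38 and 4.87 against 3.22 and 4.78, 0.781) were lower in both *Dnmt1* KO libraries. *Notch3* was lower on this scale as well (ratio 0.680). The genotypes overlapped for *Notch1* (158 and 140.5 against 142 and 142, a ratio of 0.950), *Jag1* and *Hey1*. Per 1000 summed endothelial marker counts, all 10 genes were higher in both *Dnmt1* KO libraries, with ratios from 1.16 for *Notch3* to 2.19 for *Hes6*.

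*Dll1*, *Dll3* and *Hes6*, grouped after seeing the data, had the highest ratios of the 10 to the radial glia and proliferation markers. Other genes of committed cells did not share this: the proneural and neurogenic factors summed to 62.8% of the control mean, close to the radial glia markers (60.7%). Relative to the radial glia markers, *Dll1* was at 29.8 and 24.1 in the control and 36.8 and 39.5 in *Dnmt1* KO libraries (ratio 1.42), *Dll3* had a ratio of 1.43 and *Hes6* one of 1.52, each with both *Dnmt1* KO libraries above both control libraries. Relative to the proliferation markers these 3 genes were also higher in both *Dnmt1* KO libraries, with ratios of 1.21, 1.21 and 1.29. Relative to the summed SST interneuron markers, all 10 genes were lower in both *Dnmt1* KO libraries, with ratios from 0.312 for *Notch3* to 0.593 for *Hes6*. *Dll4*, at very low counts in the *Dnmt1* KO, was lower relative to the endothelial markers as well (44.6 and 52.7 per 1000 in the control, 16.3 and 29.0 in *Dnmt1* KO libraries, a ratio of 0.466). *Notch4* was higher on that scale (68.4 and 69.7 against 85.4 and 87.1, a ratio of 1.25). These ratios restate the changes of the genes and of the marker sums. The endothelial sum fell to 42.1% of the control mean, further than any of the 10 genes, and the SST interneuron sum rose to 155%. The shared direction of all 10 on those scales follows from these sums. The part of radial glia, dividing, vascular or other cells in the values of the Notch genes was not tested.

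**Figure D5:**
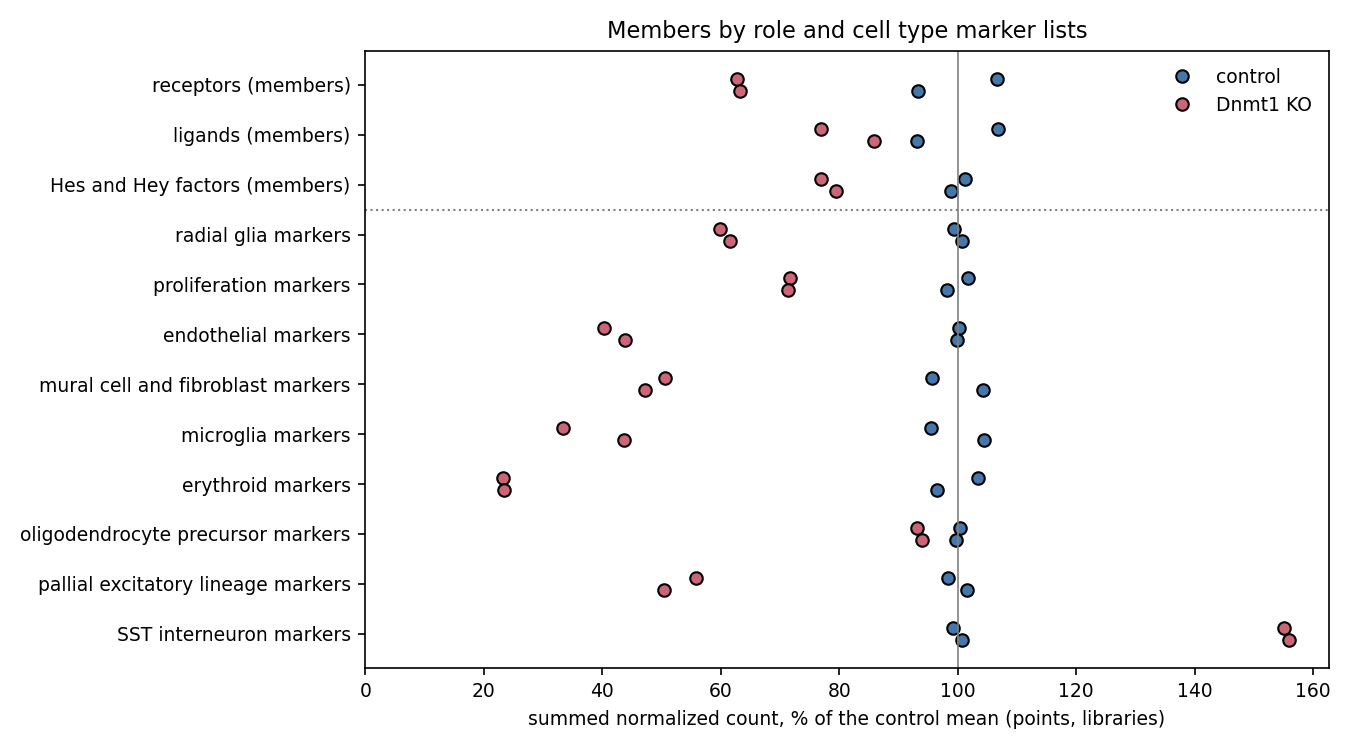
Summed normalized count per library as a percentage of the control mean (horizontal axis) for the Notch receptors, ligands and Hes and Hey genes among the 10 and for 9 lists of cell type markers; points are libraries. The receptors (63.0%) lie near the radial glia (60.7%), proliferation (71.5%) and pallial excitatory lineage markers (53.2%). The ligands and Hes and Hey genes lie nearer to 100%, and the SST interneuron markers lie above it (155%). Most of the Hes and Hey sum is *Hes6* (92.3% of its control mean), while *Hes1*, *Hes5* and *Hey1* were at 55.8%, 56.0% and 64.9%.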

How the data were processed

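After trimming (Trim Galore), the authors aligned reads to GRCm39 by STAR, quantified genes by Salmon and deposited counts normalized by DESeq2. The deposited signal, a normalized count per gene and library, is a whole number divided by 1 size factor per library (100% of values above 0 were whole multiples of 1 unit per library, tolerance 0.0001 of that unit). These whole numbers, called reads or recovered reads here, are gene-level values from Salmon and not reads counted directly. Libraries were made with a stranded kit, but how strand was handled in counting is not given in the sources used here.

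Genes averaging at least 10 normalized counts entered limma 3.58.1 (R 4.3.3; log2(normalized count + 1), variance trend, genotype as the only term, Benjamini-Hochberg adjustment, threshold 0.05, 95% intervals). The study's own test, DESeq2, needs counts, so DESeq2 1.42.0 and edgeR 4.0.16 were run on recovered reads as alternatives. In counts simulated for the 14323 genes, limma called 86 of 100 genes changed by 1 and 45 of 100 changed by 0.5 on the log2 scale, 4 unchanged genes, and 0 genes in data with no change. The simulation gave every gene the same dispersion and changed far fewer genes than were called here, so these figures need not hold for the data. Other alternatives were pseudocounts of 0.5 and 10, minimums of 1, 50 or none, TMM, quantile normalization, no variance trend, removal of a length and GC trend (splines with 5 degrees of freedom), a replicate block, and omission of each library. Positions, lengths and transcript starts came from GENCODE for GRCm39, which held 56322 of the 56883 genes, and sequences from that genome. Python 3.11.15, numpy 2.4.6, scipy 1.17.1, pandas 2.3.3 and matplotlib 3.10.9 did the rest.

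The 10 genes, the pathway lists and the marker lists were chosen with earlier results of these data known. Named are the 10 genes, from each pathway list the 3 called genes with the largest absolute change, *Dnmt1* and *Sst*. Marker lists are given by counts and sums. Other names were chosen after their values were seen, as stated beside them. A few listed genes are not reported here by name.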

Additional observations from a re-analysis of the deposited data

How the results depend on the processing

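No estimate of the 10 Notch genes changed sign under any alternative, with 149 values on the same side of the threshold as reported and 10 no longer called. Without the variance trend limma called 0 of the 10 Notch genes, 0 of the other pathway genes, 0 markers and 0 genes in all, beside 6, 20, 79 and 3339 at an unadjusted p below 0.05 and 5, 18, 74 and 2476 calls as reported. DESeq2 on recovered reads called 1317 genes in all and 4 of the 10 Notch genes, and edgeR 2528 and 5. The cause of these differences was not tested. When single libraries were left out, 4 to 5 of the 10 Notch genes, 9 to 17 of the other pathway genes, 56 to 69 markers and 1525 to 2205 genes in all were called, with the lowest totals without control replicate 2 (9 pathway genes, 1525 genes) and 1648 genes without control replicate 1. *Jag1* accounted for each loss among the 10 outside the setting without the variance trend, and quantile normalization also lost it (adjusted p = 0.0539, limma). *Hes1* had no value under a minimum mean of 50. When a library was left out, the lone library was assumed to vary like the others. With the replicate number as a block, the same number of the 10 Notch genes was called (5) and 2957 genes in all, but same-numbered libraries did not deviate together (r = -0.0847 over 14323 genes), so the numbers pair nothing. Depth limits *Hes1*, *Hey1* and *Dll3* most: they had the fewest reads and the widest intervals of the 10.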
